A study of Mus musculus with 21 samples.

Results

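SRSF7 binding on chromatin was compared with SRSF7 binding in cytoplasm of P19 cells, a mouse embryonal carcinoma line. The comparison rests on 6 of the 21 samples of the study, 3 replicates per fraction, which the authors pooled into 1 list of bound positions per fraction. All cells of these groups expressed SRSF7 fused to GFP. They were irradiated with ultraviolet light, separated into fractions and processed by iCLIP, and no other treatment, time or genotype distinguishes the groups. The remaining samples are SRSF7-GFP nucleoplasm, also 3 replicates, and the 3 fractions of cells expressing SRSF3-GFP, with 4 replicates each. The samples used here include none without a tagged protein and no RNA measurement per fraction. How strongly the fusion protein was expressed is not given in the sources used here.

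SRSF7 is an SR protein, an RNA-binding protein with a domain rich in arginine and serine that takes part in splicing, 3' end choice and mRNA export. SR proteins meet nascent RNA on chromatin, and those that shuttle, SRSF7 among them, can leave the nucleus with the mRNA. In iCLIP the light joins protein and RNA where they are in contact, and reverse transcription stops at the linked base, so the start of a cDNA marks a bound position. A chromatin fraction holds nascent transcripts and RNAs kept in the nucleus, whereas a cytoplasmic fraction holds exported mRNA, ribosomes and mitochondria.

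The chromatin list held 76172 positions with 248498 cDNAs and the cytoplasm list 142444 positions with 367298 cDNAs. Every value below is a share of the list's summed cDNA count, or a ratio of such shares, and every log2 ratio is chromatin over cytoplasm. Because the replicates were pooled, their spread is unknown and nothing was tested for significance. Intervals are exact 95% binomial intervals, they cover counting error only, and they are too narrow if replicates differed. A change in a share can come from the amount of the RNA in a fraction or from binding per molecule, and these cannot be told apart here. A position missing from a list did not pass the authors' threshold and is not shown to be unbound.

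Loci were made by joining listed positions of the 6 lists of the study at gaps of up to 10000 nt on a strand, so a locus can hold several neighbouring genes. Positions are given in build mm9. Gene names were attached to loci from general knowledge of where the genes lie in mm9, after the loci had been seen, because no mm9 annotation was used. Of 45 names placed in this way, 44 lay on the same chromosome in a RefSeq gene table of another build, in which the 45S ribosomal RNA precursor has no entry. All 32 with a promoter entry lay on the same strand. A named locus is therefore to be read as the locus holding that gene.

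Chromatin cDNAs were stacked more densely than cytoplasmic ones. The mean was 3.26 cDNAs per listed position in chromatin and 2.58 in cytoplasm. Outside the mitochondrial genome and the locus with the highest share it was 2.71 and 1.96, and positions with 6 or more cDNAs then held 52.0% of chromatin cDNAs and 34.0% of cytoplasmic ones. Positions with a single cDNA held 20.03% of the chromatin total and 27.8% of the cytoplasm total. Of chromatin positions 34.1% (95% interval 33.7 to 34.4) lay within 5 nt of a cytoplasmic position on the same strand, and they carried 60.9% of the chromatin cDNAs. In the other direction the shares were 19.8% of cytoplasmic positions (19.6 to 20.1) and 51.6% of cytoplasmic cDNAs. The longer cytoplasm list offers more partners to a chromatin position than the reverse. Among positions with 20 or more cDNAs, 78.9% in chromatin (77.1 to 80.6) and 83.1% in cytoplasm (81.5 to 84.6) had a partner. Most of the tall sites were therefore listed in both fractions, and most of the single-cDNA sites in 1.

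**Figure D1:**
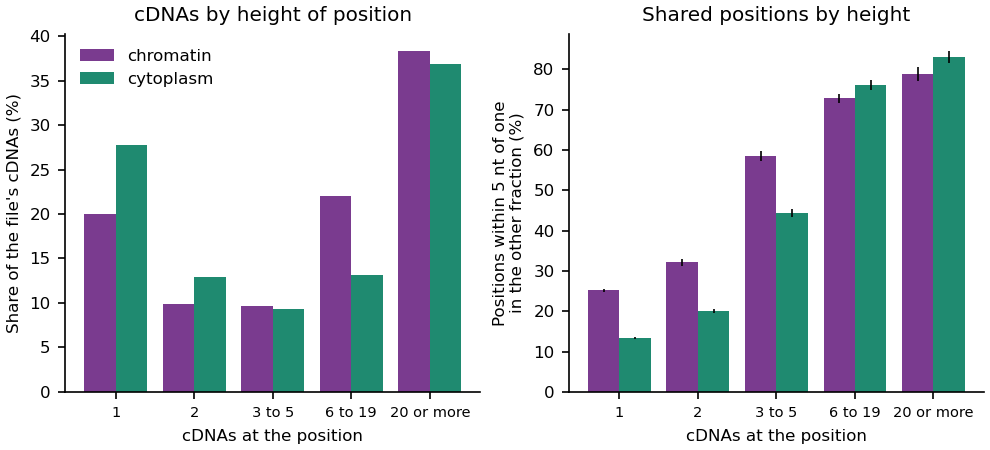
Left, share of each list's cDNAs (y axis, percent) at positions with the given number of cDNAs (x axis). Right, percent of positions of each height that lay within 5 nt of a position in the other fraction, with exact 95% intervals. Chromatin is purple and cytoplasm green, and the shared percent is higher in each taller class, up to 78.9% and 83.1%.

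The same holds for clusters, which joined the positions of both lists at gaps of up to 30 nt. Of 47973 clusters, 4588 (9.56%) were listed in both fractions, 14689 in chromatin only and 28696 in cytoplasm only. The shared clusters held 73.6% of chromatin cDNAs and 60.8% of cytoplasmic ones, with a median of 13 cDNAs against 3 for clusters listed in 1 fraction. A cluster or locus was compared when it had at least 50 cDNAs in both lists together and 10 in each, and it was called higher when the whole interval of the ratio lay beyond 2-fold. Of 585 clusters compared, 176 (30.1%) were higher in chromatin and 81 (13.8%) in cytoplasm.

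Among 852 loci compared, 190 (22.3%) were higher in chromatin and 143 (16.8%) in cytoplasm, and the median log2 ratio of the 852 was 0.01. A further 18 loci with at least 50 cDNAs were listed in chromatin only and 127 in cytoplasm only, so the comparison leaves out more cytoplasmic loci. Without the minimum of 10 in each list, 249 loci were higher in chromatin and 481 in cytoplasm, which turns the balance. With each position counted once, whatever its height, the numbers were 108 and 56. The chromatin-higher loci held 34.2% of chromatin cDNAs, 25.7% of those in nucleoplasm and 5.78% of those in cytoplasm. The cytoplasm-higher loci held 2.40%, 8.22% and 20.9% in the same order. Nucleoplasm lay between the other fractions at 110 of the 190 and at 90 of the 143 loci, and above both at 56 and 30. Over all 852 loci it lay between at 290 and above both at 356. Chromatin-higher loci had a median of 4.58 cDNAs per position in chromatin (quartiles 1.33 to 8.91), and cytoplasm-higher loci a median of 1.48 in cytoplasm (1.25 to 7.79). The 3 tallest clusters of a chromatin-higher locus held a median of 97.7% of its chromatin cDNAs, and those of a cytoplasm-higher locus 53.6% of its cytoplasmic cDNAs. In the opposite list, cytoplasm-higher loci had a median of 100% in chromatin, from a median of 25 cDNAs. Chromatin-higher loci had 95.5% in cytoplasm, from a median of 40. A high share in 3 clusters was therefore not particular to chromatin cDNAs of chromatin-higher loci. Over all 852 loci these medians were 93.3% in chromatin and 75.8% in cytoplasm. A mean of 3 or more cDNAs per position was reached by 112 of the 190 in chromatin and by 50 of the 143 in cytoplasm, against 293 and 260 of all 852, so stacked and spread loci occurred on both sides.

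**Figure D2:**
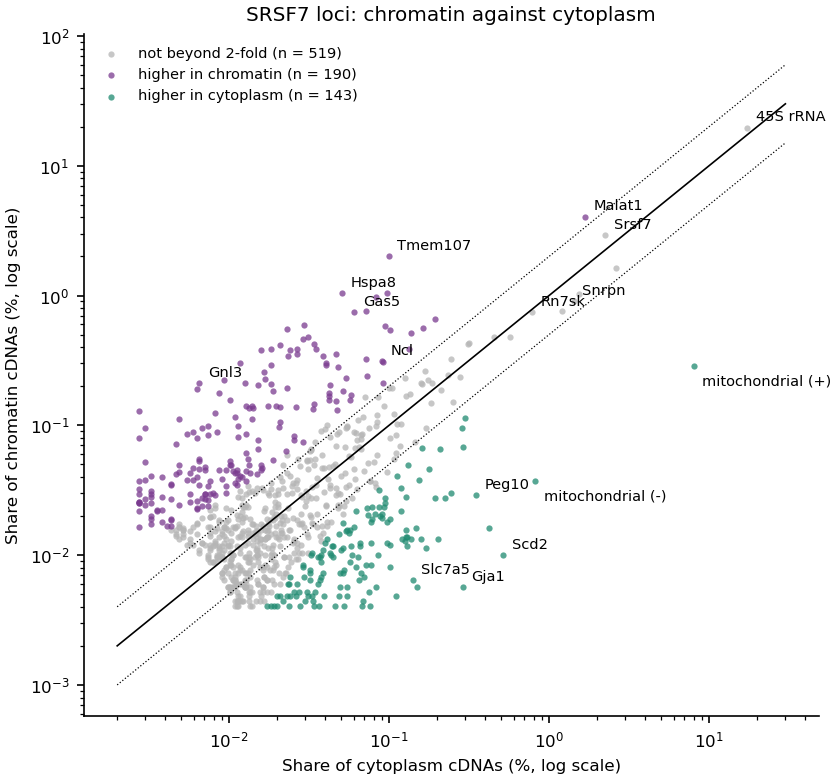
Each point is 1 of the 852 loci compared, with its share of cytoplasm cDNAs (x axis, percent, log scale) and of chromatin cDNAs (y axis, percent, log scale). The solid line marks equal shares and the dotted lines a 2-fold difference. Purple points (190) are higher in chromatin, green points (143) higher in cytoplasm and grey points (519) neither. Loci such as those of Gnl3, Hspa8 and Gas5 lie far above the line and mRNA loci such as Scd2 and Gja1 far below it.

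Several genes that carry small nucleolar RNAs (snoRNAs) in their introns took a larger share of SRSF7 cDNAs in chromatin than in cytoplasm. SnoRNAs guide the chemical modification of ribosomal RNA and are cut out of introns in the nucleus. Of 6 host mRNAs on the list used, 4 could be placed, and all 4 were higher in chromatin, with a median log2 ratio of 3.205 against 0.01 over all loci and a background of 22.3% called. The list was chosen with earlier results of these data known, so its direction is a description. The locus of Gnl3, which encodes the nucleolar protein nucleostemin, spans 31825550 to 31832202 of chromosome 14 (minus strand). Its cDNAs numbered 529 in chromatin, 267 in nucleoplasm and 24 in cytoplasm. This is a 32.6-fold higher share in chromatin, 5.03 (4.44 to 5.68) on the log2 scale. Nop58, a core protein of box C/D snoRNPs, had 722 chromatin, 334 nucleoplasm and 67 cytoplasm cDNAs at its locus, a log2 ratio of 3.99 (3.63 to 4.38). Eif4a2, a translation initiation helicase, followed with 1347, 814 and 373 cDNAs, or 2.42 (2.25 to 2.59). For Ncl, which encodes nucleolin, the counts were 778, 576 and 331 and the log2 ratio was 1.80 (1.61 to 1.99). With positions of at least 3 cDNAs only, Ncl was at 3.79 (3.42 to 4.19) and Eif4a2 at 3.05 (2.82 to 3.28). At all 4 loci the share was highest in chromatin, lower in nucleoplasm and lowest in cytoplasm. Nucleoplasm lay between the other fractions at 110 of the 190 chromatin-higher loci and at 290 of all 852.

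Of noncoding RNAs that host snoRNAs, Snhg12, Gas5 and Snhg1 were higher in chromatin. The interval of Snhg12 lay above those of Gas5 and Snhg1, which overlapped. Snhg12, on chromosome 4 (plus strand, 131859731 to 131867677), had 1031 chromatin, 408 nucleoplasm and 76 cytoplasm cDNAs. Its log2 ratio was 4.33 (3.99 to 4.68). Gas5, a growth-arrest transcript degraded during translation, had 1842, 4127 and 223 cDNAs, a log2 ratio of 3.61 (3.41 to 3.82). Snhg1 had 2414, 3929 and 305, a log2 ratio of 3.55 (3.38 to 3.72). Gas5 and Snhg1 held their largest share in nucleoplasm, with 1.501% and 1.43% of its cDNAs, whereas Snhg12 was highest in chromatin. Hspa8, a heat shock cognate chaperone gene with snoRNAs in its introns, had 2602 chromatin, 669 nucleoplasm and 188 cytoplasm cDNAs. Its log2 ratio was 4.35 (4.14 to 4.58). The 3 clusters of Hspa8 that were tallest in chromatin were 50 to 72 nt wide and held 99.8% of its chromatin cDNAs and 100% of its cytoplasmic ones. Zfas1 and Rps12, named after their values were seen and not part of a list, had log2 ratios of 3.99 (3.71 to 4.29) and 4.57 (4.25 to 4.90).

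Some loci were split into the 3 clusters tallest in chromatin and the rest of the locus. Of 12 split, 3 had a ratio above 0 in the tallest clusters and an interval below 0 in the rest. Which RNA molecules gave the cDNAs of each part was not tested. At Ncl the 3 clusters tallest in chromatin, 25 to 64 nt wide, had 680 chromatin and 39 cytoplasm cDNAs, giving 4.69 (4.22 to 5.19) on the log2 scale. The rest of the Ncl locus had 98 and 292 cDNAs, a log2 ratio of -1.01 (-1.36 to -0.68). Eif4g2, a translation initiation factor gene, showed the same split, with 2.08 (1.90 to 2.27) in its 3 tallest clusters and -2.21 (-2.89 to -1.59) in the rest. One cluster of 68 nt held 95.9% of the chromatin cDNAs of Eif4g2 and 60.8% of the cytoplasmic ones. For Eef2, the translation elongation factor that moves the ribosome along mRNA, the values were 1.68 (1.42 to 1.95) and -2.26 (-2.76 to -1.79). The locus of Eef2 as a whole was near balance, at 0.39 (0.19 to 0.58), and at 1.12 (0.87 to 1.38) with positions of at least 3 cDNAs only. At Nop58 the 3 tallest clusters had 637 chromatin and 2 cytoplasm cDNAs, and the rest had 85 and 65, a log2 ratio of 0.95 (0.47 to 1.44). Gas5 differed, because its 3 tallest clusters and the rest had overlapping intervals, at 3.78 (3.49 to 4.09) and 3.44 (3.17 to 3.73). Snhg1 and Snhg12 likewise had overlapping intervals. Of the 12 loci split in this way, 9 had enough cDNAs in the rest, and in 5 of them the rest lay below the tallest clusters with intervals apart. The clusters were picked for their height in chromatin, so part of this gap follows from the choice.

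**Figure D3:**
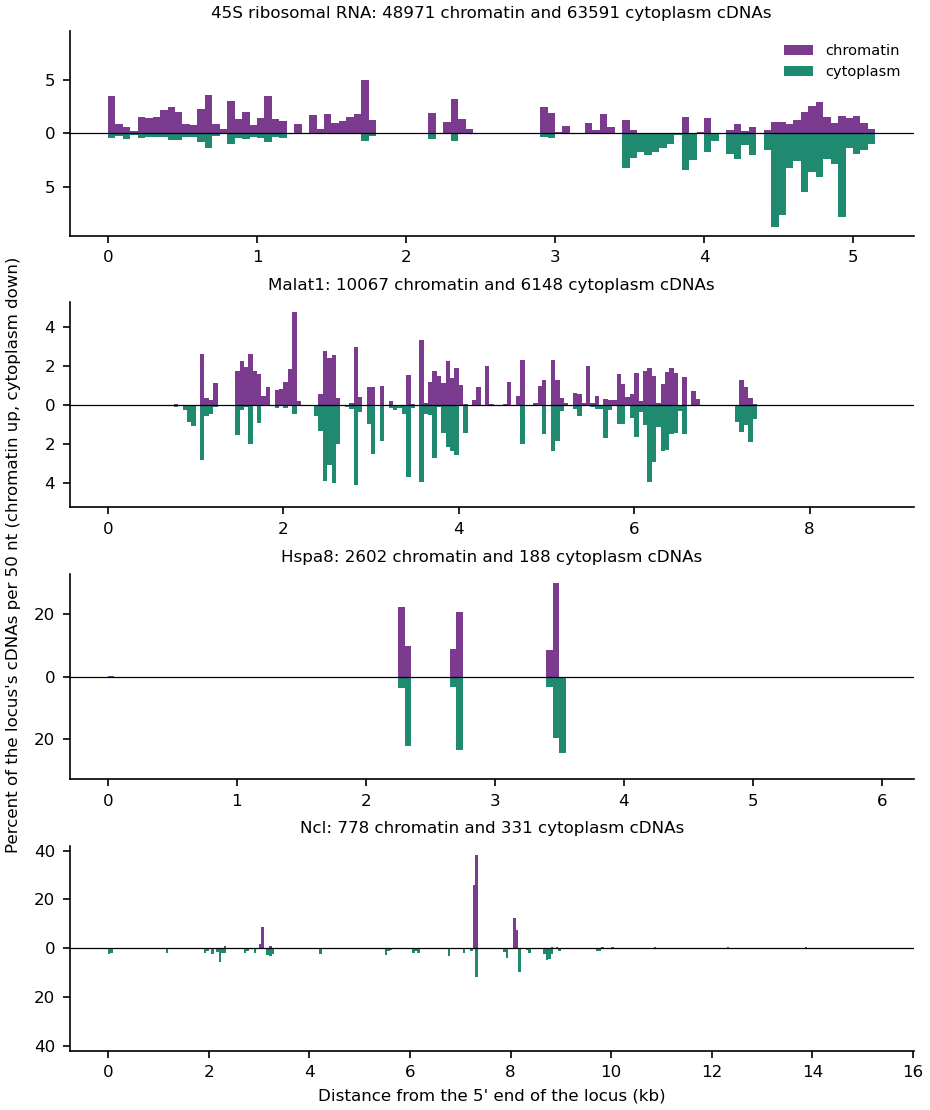
Percent of each locus's cDNAs per 50 nt (y axis) by distance from the 5' end of the locus in kb (x axis), for the loci of the 45S ribosomal RNA, Malat1, Hspa8 and Ncl. Chromatin is drawn upward in purple and cytoplasm downward in green, each scaled to its own total at the locus. Chromatin cDNAs of the 45S locus lie mostly in its first 3 kb and cytoplasmic ones beyond, Hspa8 has 3 narrow sites in both, and Ncl has narrow chromatin sites with cytoplasmic cDNAs scattered over the locus.

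The locus of Tmem107 and the neighbouring U8 snoRNA, on chromosome 11 (plus strand, 68884516 to 68887316), was another narrow chromatin site, named after its values were seen. Its 4971 chromatin, 930 nucleoplasm and 365 cytoplasm cDNAs made up 2.0%, 0.338% and 0.0994% of the lists. The log2 ratio was 4.33 (4.18 to 4.49). A single cluster of 111 nt, at 68886925 to 68887035, held all the chromatin and cytoplasm cDNAs of the locus. Within it the position 68886927 had 501 chromatin and 28 cytoplasm cDNAs. The position 68886995 had 293 in chromatin and was not listed in cytoplasm, nor was any position within 5 nt. U8 is a snoRNA needed for processing of the large-subunit ribosomal RNAs, and which of the RNAs at this locus gave the cDNAs was not tested.

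The 45S ribosomal RNA precursor was the highest locus in both lists, with 48971 chromatin cDNAs (19.7%) and 63591 cytoplasmic ones (17.3%). It lies on chromosome 17 (plus strand, 39979938 to 39985047). Its genes are repeated in the genome, and cDNAs of other copies may have been placed on this one. The total was close to even, with a log2 ratio of 0.19 (0.17 to 0.20), but its ends were not. The second kb had 11713 chromatin, 559 nucleoplasm and 1914 cytoplasm cDNAs, for a log2 ratio of 3.18 (3.11 to 3.25). In the fifth the counts were 10261, 10579 and 38951, a log2 ratio of -1.36 (-1.39 to -1.33). The first 3 kb all had ratios above 0 and the later ones all below 0, starting with the fourth at -1.13 (-1.19 to -1.08). The near-even total turned to -0.057 when only positions of at least 3 cDNAs were used, and was 1.15 with each position counted once. The precursor begins with an external spacer that is cut away during processing in the nucleolus, and the RNA of the small ribosomal subunit follows it. Where the spacer ends within the locus was not determined, so the change of sign is not assigned to that border.

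Among the listed nuclear noncoding RNAs that were placed, Malat1, a transcript of nuclear speckles where splicing factors gather, was the highest locus. It took 4.05% of chromatin cDNAs (10067), 3.82% of nucleoplasm (10494) and 1.67% of cytoplasm (6148). Its log2 ratio was 1.28 (1.23 to 1.32). The ratio changed along the locus. It spans 8.70 kb, against 6.98 kb for the gene in the RefSeq table, so its ends may lie outside Malat1. The first kb of the locus leaned to cytoplasm, with 7 chromatin and 141 cytoplasm cDNAs, the second had a log2 ratio of 2.37 (2.24 to 2.51) and the eighth 0.08 (-0.15 to 0.31). One cluster at 5801277 to 5801452 had 891 chromatin and 36 cytoplasm cDNAs, or 5.19 (4.71 to 5.72) as a log2 ratio. The locus of Rn7sk, the 7SK small nuclear RNA that holds back a transcription elongation kinase, was even at -0.08 (-0.17 to 0.00), from 1844 and 2889 cDNAs. Meg3 and Rian, maternally expressed transcripts of an imprinted region, had log2 ratios of 0.35 (0.09 to 0.61) and 1.23 (0.93 to 1.54). Neither had its whole interval beyond 2-fold. Neat1 had 24 cDNAs in cytoplasm and was not listed in chromatin. Of the 12 RNAs on the list of nuclear noncoding RNAs, snoRNA hosts included, 9 were placed and 7 compared. Of these, 4 were higher in chromatin and 0 in cytoplasm, against 22.3% and 16.8% of all loci, with a median log2 ratio of 1.28. The 4 were Malat1 and the snoRNA hosts Gas5, Snhg1 and Snhg12 described above. Among the compared RNAs of the list that are not such hosts, only Malat1 was called, so the count does not describe nuclear noncoding RNAs as a class.

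Transcripts of SR protein genes were listed in both fractions, and none was called higher in either. Of 12 genes on the list, 5 were placed and compared, with 0 called against backgrounds of 22.3% and 16.8%, and the log2 ratios ran from -1.41 to 1.06. The Srsf7 locus itself took 2.91% of chromatin cDNAs (7222), 5.23% of nucleoplasm (14384) and 2.25% of cytoplasm (8257), a log2 ratio of 0.37 (0.32 to 0.42). SR proteins are known to bind their own pre-mRNA, in the case of SRSF7 around an exon that carries a premature stop. One cluster of 1110 nt held 67.2% of the chromatin cDNAs and 70.4% of the cytoplasmic ones at the Srsf7 locus, so the same stretch was bound in both fractions. Whether transcripts of the SRSF7-GFP construct add to this locus was not tested. All 5 SR protein loci had their largest share in nucleoplasm, as did 356 of all 852 loci compared and 270 of the 519 called in neither direction.

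The 6 coding loci listed for SRSF7 binding in cytoplasm were all higher there, as their choice from earlier results of these data implies, with a median log2 ratio of -4.15. Of them, Elovl6, Pgap1 and Ktn1 had been picked out because SRSF7 and SRSF3 went opposite ways there. Scd2, a fatty acid desaturase gene, on chromosome 19 (plus strand, 44368569 to 44383355), had 25 chromatin, 382 nucleoplasm and 1901 cytoplasm cDNAs. It was 51.4-fold higher in cytoplasm, a log2 ratio of -5.68 (-6.32 to -5.12). Gja1, which encodes the gap junction protein connexin 43, had 14, 230 and 1069 cDNAs, a log2 ratio of -5.69 (-6.57 to -4.94). Slc7a5, an amino acid transporter gene, had 16, 153 and 519, a log2 ratio of -4.46 (-5.27 to -3.74). Pgap1, Elovl6 and Ktn1 had log2 ratios of -3.84 (-4.77 to -3.05), -2.18 (-2.56 to -1.82) and -2.12 (-2.58 to -1.69). Nucleoplasm lay between the other fractions at all 6 loci, against 90 of the 143 cytoplasm-higher loci and 290 of all 852 compared. None of the 6 had enough chromatin cDNAs to be compared when only positions of at least 3 cDNAs were used. Their cytoplasmic cDNAs were spread thinly, at 1.19 to 1.92 per position. The 4 snoRNA host mRNAs had 1.14 to 1.92 in cytoplasm too, and 5.50 to 8.02 in chromatin. Of the 1069 in Gja1, 89 lay in the first kb of the locus and 516 in the thirteenth, and of the 1901 in Scd2, 239 lay in the first kb and 489 in the tenth.

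Other mRNAs placed after their values were seen went the same way. Peg10, an imprinted gene derived from a retrotransposon, had 72 chromatin and 1281 cytoplasm cDNAs, for a log2 ratio of -3.59 (-3.95 to -3.25). Hsp90b1, a chaperone of the endoplasmic reticulum, had 33 and 747, a log2 ratio of -3.94 (-4.49 to -3.43), and Slc2a3, a glucose transporter gene, had 33 and 583, a log2 ratio of -3.58 (-4.13 to -3.07). Fn1, the fibronectin gene, had 433 cDNAs over 366 positions in cytoplasm and 158 in nucleoplasm and was not listed in chromatin. It had the most cDNAs of the 127 loci listed in cytoplasm only. Abundant housekeeping mRNAs were mixed, against the same 22.3% and 16.8% over all loci. Of 8 on the list 7 were placed and compared, and 3 were higher in chromatin, Hspa8, Ncl and Gapdh, against 2 in cytoplasm, Actb at -3.07 (-3.66 to -2.53) and Pabpc1 at -3.09 (-3.74 to -2.50). The Gapdh locus spans 29.8 kb and so holds other genes, and its tallest cluster, with 80.0% of the chromatin cDNAs, lies 24577 nt from its lower coordinate. Gapdh lost its call, at 1.64, when the cytoplasm list was thinned to the chromatin total. Eef1a1 had a log2 ratio of -0.67 (-1.05 to -0.30), which was -1.82 (-2.86 to -0.90) with positions of at least 3 cDNAs only. Of the pluripotency genes that mark P19 cells, 4 of 7 were placed, and Lin28a was compared, at -2.55 (-3.21 to -1.95). Pou5f1 and Sox2 had 33 and 9 cDNAs in cytoplasm and were not listed in chromatin, and Sall4 was not listed in either, so the markers give a thin check of the cell line.

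**Figure D4:**
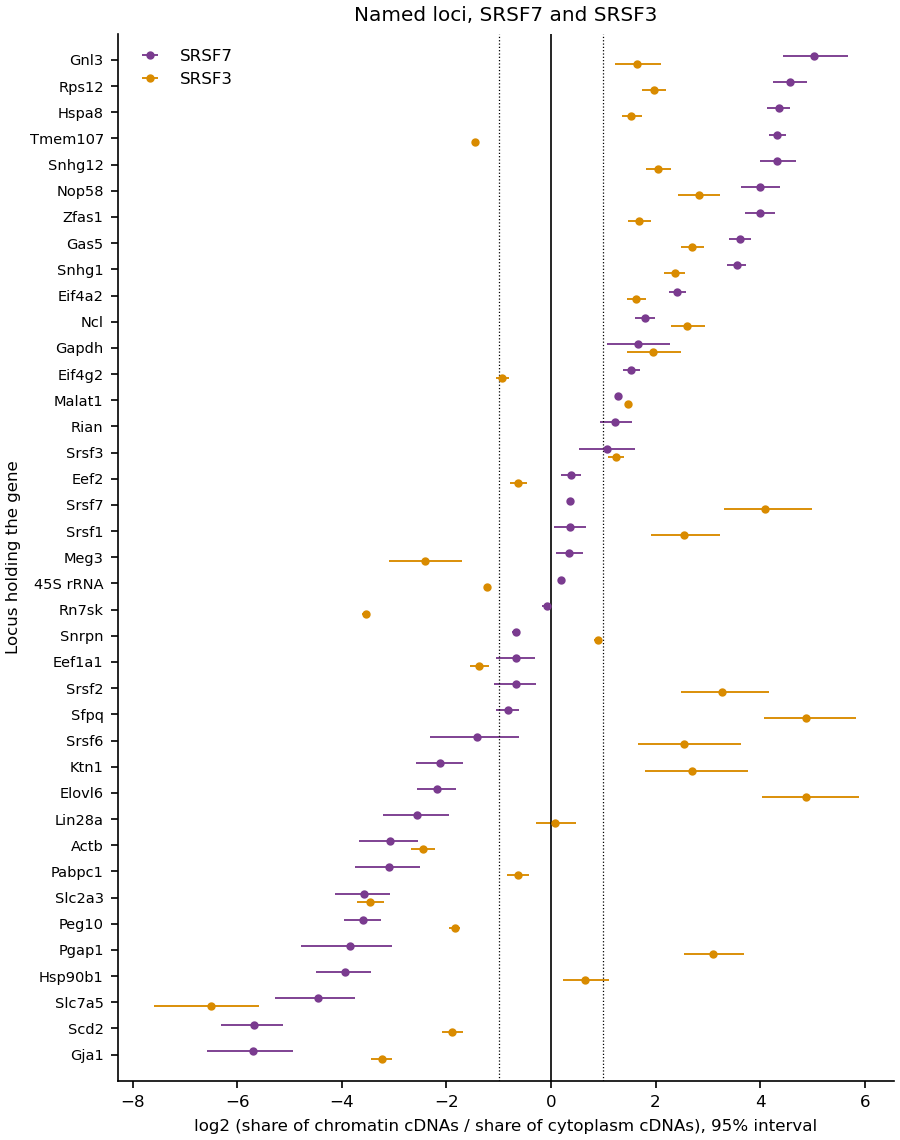
log2 ratio of the share of chromatin cDNAs to that of cytoplasm cDNAs (x axis) at each named locus that was compared (y axis), with exact 95% intervals for counting error, for SRSF7 (purple) and SRSF3 (orange). The solid line marks equal shares and the dotted lines 2-fold. Names of snoRNA hosts fill the top for SRSF7, from 5.03 at Gnl3, and coding loci fill the bottom, to -5.69 at Gja1.

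Loci in the histone gene region of chromosome 13 leaned to cytoplasm. Replication-dependent histone mRNAs lack introns and a poly(A) tail, and SRSF7 is known to act in the export of an intronless histone mRNA. Of 22 loci compared there, between 21802440 and 23856490, 15 were higher in cytoplasm and 0 in chromatin, against backgrounds of 16.8% and 22.3%. All 22 had a log2 ratio below 0, from -3.51 to -0.31, with a median of -2.36. The region held 0.334% of chromatin cDNAs (830), 1.35% of nucleoplasm and 1.44% of cytoplasm (5287). For SRSF3 all 22 were called higher in cytoplasm, against 38% of the 1050 loci compared for that protein. The region was chosen after its values were seen, and which histone genes gave the cDNAs was not resolved.

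Mitochondrial RNA took 0.322% of chromatin cDNAs (799; 0.300 to 0.345) and 8.89% of cytoplasmic ones (32637; 8.79 to 8.98). The log2 ratio was -4.79 (-4.89 to -4.69), and -1.94 with each position counted once. Mitochondria make their own RNA and are left in a cytoplasmic fraction when nuclei are removed. Genes were assigned from the RefSeq gene table, whose mitochondrial sequence is the one used in mm9 as far as is generally known. The 12S ribosomal RNA mt-Rnr1 had 59 chromatin and 8507 cytoplasm cDNAs, for a log2 ratio of -6.61 (-7.00 to -6.24). The 16S ribosomal RNA mt-Rnr2 had 307 and 12504, a log2 ratio of -4.78 (-4.95 to -4.62). The transfer RNAs with at least 10 cDNAs in each list varied, from -4.54 (-5.27 to -3.91) for TrnC to -1.67 (-2.34 to -1.05) for TrnT, with intervals apart. TrnI and TrnQ, with 657 and 201 cytoplasm cDNAs, were not listed in chromatin and have no ratio. Of 22 transfer RNA genes 10 were listed in chromatin and 13 in cytoplasm, and of 13 coding genes 3 and 7. COX1, a subunit of the terminal oxidase, had 2087 cDNAs in cytoplasm and 1 in chromatin. COX2, ATP8, ATP6, COX3, ND3 and ND4L, which follow COX1 on the genome, were listed in neither fraction, nor were the transfer RNA genes among them. How reads were aligned is not stated in the sources used here, so this unbroken stretch is not shown to be unbound. The counts of listed genes share this limit.

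**Figure D5:**
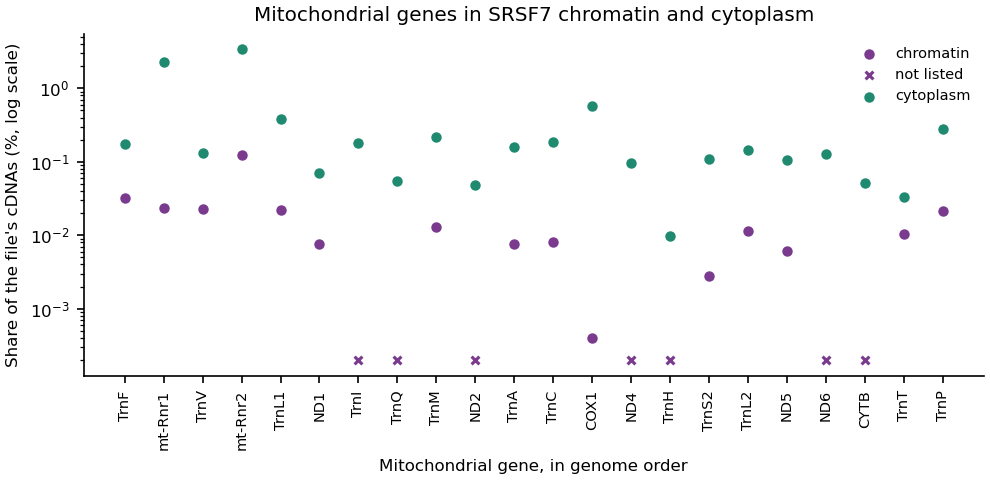
Share of each list's cDNAs (y axis, percent, log scale) at each mitochondrial gene with a listed position (x axis, in genome order), for SRSF7 chromatin (purple) and cytoplasm (green). Crosses at the bottom mark genes not listed in chromatin and have no value. Every gene drawn with 2 values lies higher in cytoplasm, with the widest measured ribosomal gap at mt-Rnr1.

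The place where a locus had most SRSF7 cDNAs was the same in both fractions at some loci and different at others. Of 70 loci with at least 200 cDNAs in each fraction, 39 had their tallest 100 nt window at the same place in both. Among the 44 of these that span over 1 kb it was 20, and the overlap of the 2 profiles had a median of 58.7%. Loci whose cDNAs all fall in 1 window agree by construction, which raises the count among shorter loci. The tallest single positions showed both kinds. Position 26603518 of chromosome 5 (plus strand) had 311 cDNAs in cytoplasm and 2 in chromatin, whereas position 57391793 of chromosome 16 (minus strand) had 328 in chromatin and 171 in cytoplasm. Among clusters with at least 10 cDNAs in each list, outside the mitochondrial genome and the 45S locus, the highest log2 ratio was 6.24 (5.35 to 7.31), from 511 and 10 cDNAs over 49 nt of chromosome 4 (minus strand, 3762248 to 3762296). Next came 35 nt in the Rps12 locus, whose 725 and 19 cDNAs gave 5.82 (5.16 to 6.56). The lowest was -4.25 (-5.32 to -3.35), from 10 and 281 cDNAs over 9 nt of chromosome 10 (minus strand, 78420821 to 78420829). Clusters under that minimum reached further, such as Gas5 with 286 and 1 cDNAs and Peg10 with 1 and 142.

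The SRSF3 lists come from other samples and were set beside those of SRSF7. Their sizes run the other way, with 1768665 cDNAs in chromatin and 257089 in cytoplasm. In SRSF3, 20.8% of 1050 loci compared were higher in chromatin and 38% in cytoplasm. Among the 547 loci compared for both proteins, 160 were higher in chromatin for SRSF3 and 207 in cytoplasm. Of 132 loci that were higher in chromatin for SRSF7 and could be compared for SRSF3, 63 were higher in chromatin for SRSF3 too and 23 in cytoplasm. Of 116 that were higher in cytoplasm for SRSF7, 64 were higher in cytoplasm for SRSF3 and 21 in chromatin. Over all 547 loci compared for both proteins, the SRSF7 interval lay higher at 257, lower at 177 and overlapped that of SRSF3 at 113. All 4 snoRNA host mRNAs were higher in chromatin for both proteins, and the intervals of Gnl3, Nop58 and Eif4a2 lay higher for SRSF7 than for SRSF3, whereas that of Ncl lay lower. Gnl3 had a log2 ratio of 1.65 (1.22 to 2.10) in SRSF3 against 5.03 in SRSF7. All 5 SR protein loci were higher in chromatin for SRSF3, against 0 for SRSF7, and in 4 of them the SRSF7 interval lay wholly below that of SRSF3, as it did at 177 of all 547 loci. The Srsf7 locus had a log2 ratio of 4.08 (3.31 to 4.997) in SRSF3, from 1517 and 13 cDNAs. For Rn7sk it was -3.54 (-3.60 to -3.47) in SRSF3 against -0.08 in SRSF7. The track names of the SRSF7 lists carry a term on how regions were treated that those of SRSF3 do not, and its part in these differences was not tested.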

How the data were processed

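The authors deposited 1 list of positions per protein and fraction, with the replicates pooled, per the labels. Each value is a whole number of either sign, whose size was read as the cDNA count and whose sign as the strand. Per the file headers, positions are in build mm9 and were kept at a false discovery rate under 0.05, from 100 permutations and neighbourhoods of 15 nt. How reads were aligned, deduplicated and called is not stated in the sources used here.

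Shares were taken of each list's total, with exact Clopper-Pearson intervals, and ratios with conditional exact binomial intervals at 95%. The locus comparison was run on simulated counts with known folds, drawn with counting error only. That run held no spread between replicates, so it cannot show how the intervals behave with such spread. The loci described are those with the highest shares, ratios and counts, and genes of lists. The loci split into clusters or profiled along their length were picked after their values were seen. The comparison, the gene lists and the names were chosen with earlier results of these data known. Genes of the lists that could not be placed were not analysed here. Alternatives are given in the closing section. Scripts ran in Python 3.11.15. They used scipy 1.17.1 for intervals, pandas 2.3.3 and numpy 2.4.6 for tables, and matplotlib 3.10.9 for plots.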

Additional observations from a re-analysis of the deposited data

Results flagged for a closer look

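The SRSF7 and SRSF3 ratios of chromatin to cytoplasm both lay beyond 2-fold, in opposite directions, at 23 loci higher in chromatin for SRSF7 and 21 higher in cytoplasm. The 6 given here are those among the named loci and the loci with the highest and lowest values. The difference was not tested against replicates, since each group is 1 pooled list, and its cause was not tested. The Elovl6 locus had a log2 ratio of -2.18 in SRSF7 (70 and 469 cDNAs) and 4.88 in SRSF3 (2223 and 11). Pgap1 had -3.84 in SRSF7 and 3.09 in SRSF3 (1582 and 27 cDNAs), and Ktn1 -2.12 and 2.69 (444 and 10). These 3 were on the gene list because earlier results of these data showed this opposition, so it is a description. The other 3 went the opposite way. The Tmem107 and U8 locus had 4.33 in SRSF7 and -1.46 in SRSF3 (8062 and 3219 cDNAs). On chromosome 12 (minus strand, 103491728 to 103491897) a locus had 5.55 (318 and 10 cDNAs) and -2.55 (33 and 28). On chromosome 19 (minus strand, 4078318 to 4078514) a locus had 4.58 (551 and 34 cDNAs) and -3.73 (65 and 125).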

How the results depend on the processing

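No paired analysis was possible because the replicates of each fraction were pooled into 1 list, and for the same reason leaving out a replicate could not be run. The main counts were 190 loci higher in chromatin and 143 in cytoplasm. They became 97 and 63 when positions needed at least 3 cDNAs, 108 and 56 with each position counted once, and 97 and 88 with at least 200 cDNAs per locus. Without the minimum of 10 cDNAs in each list, 481 loci were higher in cytoplasm and 249 in chromatin, so the balance of directions turned. Thinning, the removal of the mitochondrial genome and the 10 highest loci, and both other ways of joining loci left the locus counts within 1.5 times. No called locus turned to the opposite call with at least 3 cDNAs, thinning, each position counted once or the removal of the highest loci. Many lost their call instead. With at least 3 cDNAs, 86 of the 190 and 43 of the 143 kept it, and 95 and 99 could not be compared. With each position counted once, 93 and 56 kept it, and 70 and 52 could not be compared. Clusters higher in chromatin and in cytoplasm fell to 30 and 2 when positions were counted, and clusters in both fractions to 1205 with positions of at least 3 cDNAs. The mitochondrial log2 ratio was -5.47 with at least 3 cDNAs and -1.94 by positions. The 45S ratio reversed to -0.057 with at least 3 cDNAs, and was 1.15 by positions and 0.057 without the mitochondrial genome. The share of chromatin cDNAs near a cytoplasmic position was 69.4% with at least 3 cDNAs, 59.97% thinned, 34.1% by positions, 49.7% without the highest loci, 51.8% at 0 nt and 66.2% at 15 nt. The reverse share was 71.8%, 19.8%, 34.9%, 44.6% and 55.2% with those settings other than thinning. Among named loci, Gapdh lost its call when thinned (1.64) and with at least 3 cDNAs (1.45), and Rian (1.57) and Snrpn (-1.45) passed 2-fold with at least 3 cDNAs. With that setting Ncl moved from 1.80 to 3.79, Eif4a2 from 2.42 to 3.05, Eef2 from 0.39 to 1.12, Sfpq from -0.83 to -1.46 and Eef1a1 from -0.67 to -1.82, with no change of call. All 6 coding loci chosen for their cytoplasmic side fell below the minimum in chromatin at 3 cDNAs per position, so thin chromatin counts limit their ratios. The causes of these shifts were not tested.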
